A study of Homo sapiens with 15 samples.

Results

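The comparison described here sets wild-type HT1080 cells given TMP195 against HT1080 cells whose own KDAC4 carries the substitution H803A, by RNA sequencing. HT1080 is an established human fibrosarcoma line. The TMP195 group holds 3 libraries of unedited cells treated with TMP195 at 1 µM over 2 days. The KDAC4 H803A group (KDAC4 is the protein of gene HDAC4) holds 3 usable libraries of cells labelled as receiving no treatment. They were chosen by their column names, and make 6 of the 15 samples of the series. The other samples are 4 of KDAC4 H976Y, 4 of KDAC7 H709A (gene HDAC7) and 1 more of KDAC4 H803A, whose column holds gene lengths rather than counts and was left out. An alanine in place of this histidine is widely used as an inactive form. Untreated wild-type cells were not analysed here. A difference between the groups can therefore come from the inhibitor, from the edited residue or from the cells' separate histories, and these cannot be told apart. The labels do not say whether replicates were separate cultures or whether the edited cells were 1 clone. Every p-value therefore measures only the spread between libraries. In the main fit that spread is estimated over all 14 count libraries, those of the other edited cells included.

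Class IIa deacetylases (HDAC4, HDAC5, HDAC7 and HDAC9) have weak catalytic activity of their own on acetylated lysine. They bind MEF2 transcription factors at their target genes and bring in the NCoR and SMRT corepressors with HDAC3, and kinases and 14-3-3 proteins send them out of the nucleus. TMP195 occupies the catalytic pocket of this class, so the comparison sets a drug in the pocket of the whole class against a changed residue in the pocket of a single member.

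The edited histidine lies in the catalytic domain. In the GENCODE v29 transcript of HDAC4 that encodes 1084 codons, the codon changed in H803A is in exon 19 on the minus strand, at chr2:239087579-239087581 of GRCh38. It is shown in the window chr2:239087564-239087596, because it is the residue that separates the edited cells from the wild type, beside the HDAC7 window chr12:47789528-47789560 (exon 18, minus strand), which holds the residue edited in the KDAC7 H709A cells. Capitals mark the histidine codon. Both are reference sequence, read 5′ to 3′ on the coding strand.

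HDAC4 codon of H803A: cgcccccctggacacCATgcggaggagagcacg

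HDAC7 codon of H709A: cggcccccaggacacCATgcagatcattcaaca

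The deposited counts cannot show the edit, so the labels of the KDAC4 H803A libraries could not be checked against it. One of them stands apart. Across 11594 genes on a log2 scale, the library labelled KDAC4 H803A replicate 1 (H803A 1 below) correlated at r = 0.707 and 0.685 with H803A 2 and 3, which correlated at 0.981 with each other, and at 0.996 with the library labelled KDAC7 H709A replicate 4. The 3 TMP195 libraries correlated at 0.987 to 0.994. Where calls or medians differ, called genes and most lists are also given without H803A 1, and with it as the only KDAC4 H803A library. The last fit was chosen after seeing the data, and its lone library is assumed to vary like the other groups. A list given with all libraries only can still differ in the other fits. The cadherin median, for example, was 0.23 with all libraries, 1.01 without H803A 1 and -0.27 with it alone.

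**Figure D1:**
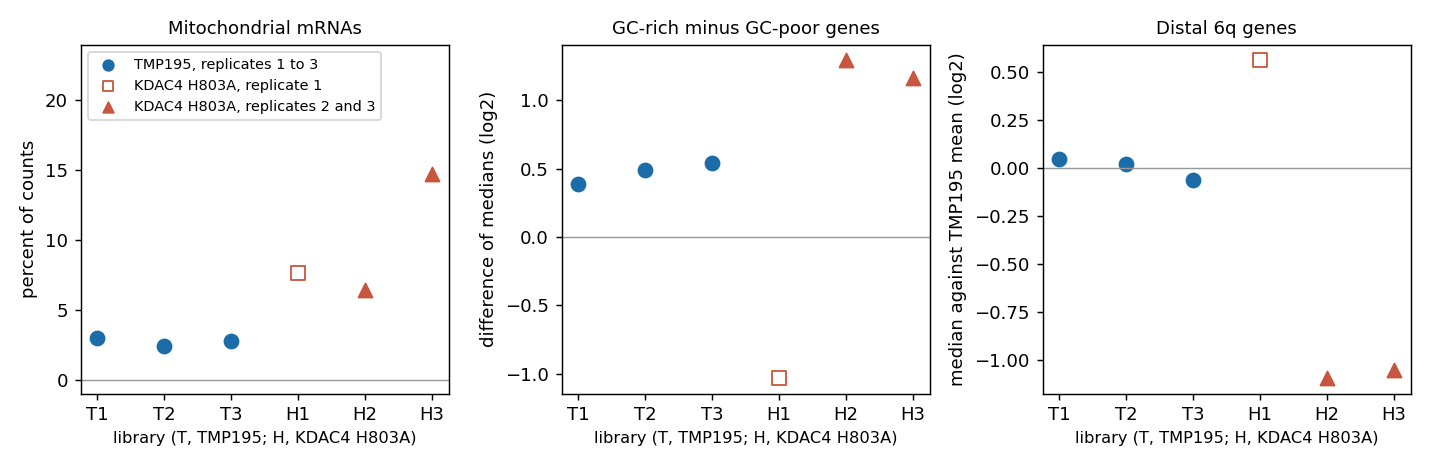
Measures in each library: the percentage of counts from mitochondrially encoded mRNAs, the difference between the medians of GC-rich and GC-poor genes (log2), and the median of genes on distal 6q against the TMP195 mean (log2). Circles are TMP195 libraries, the open square is H803A 1 and triangles are H803A 2 and 3; H803A 1 and the other KDAC4 H803A libraries lie on opposite sides of the TMP195 libraries in the panels of GC content and 6q.

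Library totals ran from 8909859 to 15640844 expected counts. Mitochondrially encoded mRNAs took 7.63%, 6.45% and 14.7% of the counts in H803A 1, 2 and 3 and 2.38% to 2.98% with TMP195. The difference between the medians of GC-rich and GC-poor genes was -1.03 in H803A 1, 1.29 and 1.16 in H803A 2 and 3, and 0.39 to 0.54 with TMP195 (log2). Relative to TMP195, the median of 251 genes on chromosome 6 beyond 62 Mb was 0.56 in H803A 1 and -1.09 and -1.05 in H803A 2 and 3 (log2), while 338 genes before 58 Mb lay between -0.16 and -0.06. The median of 7 Y-linked coding genes was 0.87 in H803A 1 and -4.55 in each of H803A 2 and 3. The plot of library measures shows 3 of these differences. For GC content and mitochondrial mRNAs, fits that allow for them are given with the counts of calls, and the part of the chromosome 6 and Y-linked differences in the results was not tested.

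Of 17780 genes tested, 949 (5.34%) were called, that is, had an adjusted p under 0.05 in edgeR's quasi-likelihood test with Benjamini-Hochberg adjustment. More of them were lower with TMP195 than higher: 672 genes (3.78%) against 277 (1.56%). With upper quartile scaling the split was 621 lower against 428 higher, and with limma-voom 538 against 381. The fold was at least 2 for 811 calls. The 3 libraries of one group lay wholly above the 3 of the other for 936 calls, against 4318 of all genes tested (24.3%). Protein-coding genes made up 553 calls, long non-coding and antisense genes 223 (33 of them higher) and pseudogenes 121. All counts of TMP195 were 0 for 89 called genes.

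Without H803A 1, 1232 genes (6.62% of 18610 tested) were called higher and 1463 (7.86%) lower, and 906 of the 949 kept their call. With H803A 1 alone, 203 (1.03% of 19657 tested) were called higher and 1038 (5.28%) lower, and 458 of the 949 kept theirs. The genes called in all 3 fits numbered 55 higher (0.309% of those tested) and 380 lower (2.14%). The median log2 fold change of all genes was -0.11, 0.00 without H803A 1 and 0.05 with it alone. Single libraries of either group mattered too: 383 genes (71 higher, 312 lower) were called whichever of the 6 libraries was left out. With GC and length offsets 1200 genes were called, 763 of the 949 among them, and without mitochondrially encoded genes 928, with 921 of the 949. Of the genes named in the text, ACSS2, CDKN1A, CSF1, EPAS1, GPS2, HIST1H2BK, HIST1H3A, ITGA3, ITGA5, ITGB5, LGALS1, LOXL1, MMP14, MVK, NOG, PCDH1, PLAUR, SLC7A5 and TAGLN2 lost their call with GC and length offsets (adjusted p from 0.0657 to 0.433). The genes called under all 28 alternatives tried include ADAMTS2, COL6A3, DHRS3, HMOX1, ID3, ITGA11, ITGB3, LAMA3, LOXL2 and PTGES, which were higher, and FAM129C, FRK, HLA-C, ITGB8, KLRD1, LSS, MPV17L, NEFL, POTEC, SOD2, TMEM212 and ZNF471, which were lower.

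**Figure D2:**
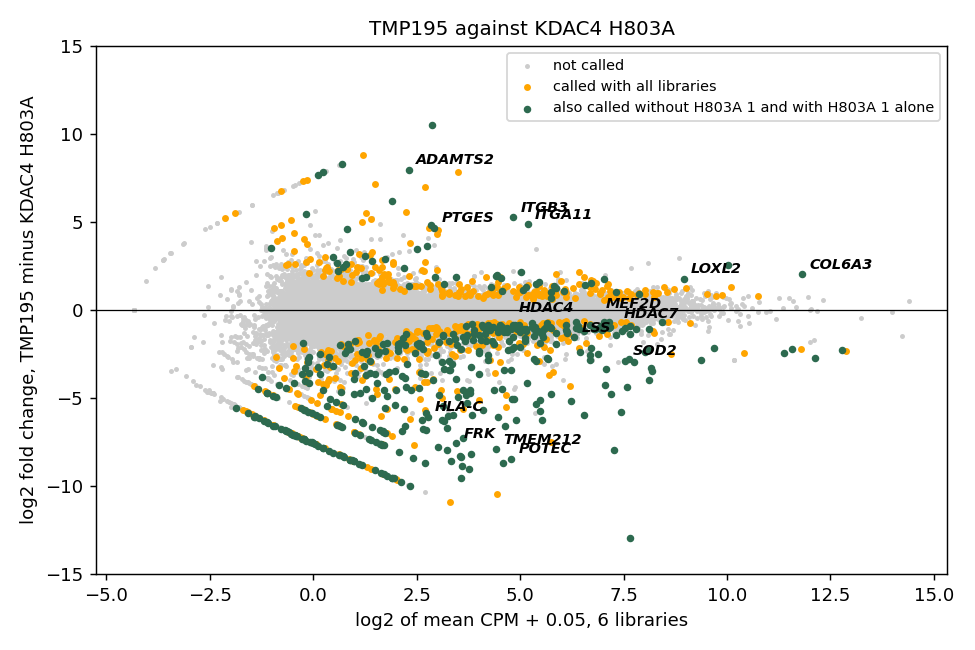
Log2 fold change (TMP195 minus KDAC4 H803A) against log2 of the mean CPM over the 6 libraries, for all genes tested. Grey points were not called, orange points were called with all libraries, and green points were also called without H803A 1 and with H803A 1 alone; most green points lie below 0.

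The class IIa enzymes and MEF2 factors themselves were not called with all libraries. A fit without H803A 1 and KDAC7 H709A replicates 1 and 4 did call HDAC4, HDAC5, HDAC7 and MEF2A (edgeR, adjusted p = 0.00838, 0.0368, 0.000921 and 0.00186). That fit called 8792 of the 18359 genes it tested, so such calls are not particular to these genes. Levels are CPM, the expected counts of a gene per 1000000 counted in its library, scaled by TMM. HDAC4 stood at 22, 23.6 and 25.4 CPM with TMP195 and at 17.5, 36.4 and 40 CPM in H803A 1, 2 and 3, so the groups overlapped. Its log2 fold change was -0.40 (SE 0.59, adjusted p = 0.768), or -0.68 without H803A 1 and 0.35 with it alone (adjusted p = 0.447 and 0.801). HDAC7 stood at 112, 115 and 132 CPM against 215, 189 and 201 CPM. Those libraries did not overlap, but the difference of -0.75 (SE 0.49) did not pass the test (adjusted p = 0.46). Without H803A 1 it was -0.69 (adjusted p = 0.374), and with it alone -0.94. HDAC7 stood at 422, 88, 68.55 and 222 CPM in KDAC7 H709A 1 to 4. Those libraries enter the shared estimate of spread. The adjusted p of HDAC7 was 0.374 without H803A 1, and 0.000921 without KDAC7 H709A 1 and 4 as well (edgeR). The reason for that change was not tested.

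HDAC5 gave -0.16 (adjusted p = 0.768) and HDAC9, which binds MEF2 as HDAC4 does, gave -0.47 (adjusted p = 0.487). The latter rested on H803A 1, at 122 CPM against 41.1 and 51 in H803A 2 and 3, and HDAC9 was called lower with H803A 1 alone (-1.33, adjusted p = 0.00902). MEF2A, MEF2C and MEF2D gave -0.11, -0.41 and -0.19 (adjusted p = 0.924, 0.746 and 0.603), and none of them was called without H803A 1 only. The spread within KDAC4 H803A was wide for MEF2A, at 86.9, 24.7 and 28.2 CPM, against 47.6, 42.4 and 40.1 with TMP195.

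Around these factors, 1 of 6 corepressor complex genes was called. GPS2, a subunit of the NCoR and SMRT complex, was lower with TMP195 at 42.4, 37.9 and 36.1 CPM against 55.1, 66.4 and 67.9 (-0.70, SE 0.18, adjusted p = 0.0356). It kept its call without H803A 1 but not with it alone (adjusted p = 0.127). None of 16 kinases and 14-3-3 carriers and none of 6 other zinc deacetylases was called with all libraries. Of the former 1 was lower in each of the other fits, and of the latter 1 was lower with H803A 1 alone.

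Of 14 MEF2-regulated genes tested, 1 was called, and their median log2 fold change was -0.26 beside -0.11 for all genes, of which 5.34% were called. Without H803A 1, 3 of 15 were higher and the median was -0.04, and with it alone 2 of 16 were lower and the median was 0.12. ARRDC4, an arrestin-domain gene that restrains glucose uptake, stood at 3.37, 3.6 and 3.41 CPM with TMP195 and at 0.697, 0.484 and 0.658 CPM in the KDAC4 H803A libraries (2.47, SE 0.41, adjusted p = 0.00294). The groups were far apart and each was tight, though with H803A 1 alone the call was lost (adjusted p = 0.0563). KLF2 and NR4A1, known MEF2 targets of the endothelium and T cells, gave -0.09 and -0.68 (adjusted p = 0.941 and 0.626). No immediate early transcription factor (0 of 16) and no phosphatase or Sprouty gene of growth factor feedback (0 of 16) was called. Without H803A 1, 1 of 17 and 0 of 16 were higher and 1 and 2 lower, and with it alone 0 and 3 of 17 were lower.

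The largest differences were genes that were read in the KDAC4 H803A libraries and barely with TMP195. By the naming rule, these are the 12 protein-coding genes with the largest fold change in each direction among those called, without overlap between the 3 and 3 libraries, and at a mean of at least 5 CPM in the higher group. TMEM212, which encodes a transmembrane protein, stood at 39.3, 37.4 and 50.8 CPM in H803A 1, 2 and 3 and at 0.191, 0.183 and 0.134 CPM with TMP195. Its log2 fold change was -7.88 (SE 0.52, adjusted p = 5.5e-06). FRK, a tyrosine kinase related to Src, stood at 18.1, 17.4 and 29.9 CPM against 0.0635, 0.183 and 0.0669 CPM (-7.55, SE 0.61, adjusted p = 1.18e-05). All 3 KDAC4 H803A libraries were high for both genes, H803A 1 included.

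The same was seen for ZNF471, a KRAB zinc finger gene, at 13.2, 30.9 and 39.1 CPM against at most 0.201 CPM (-8.18, SE 0.76, adjusted p = 2.66e-05). POTEC, of a family of near-identical ankyrin genes whose counts are uncertain for that reason, stood at 20.1, 59.8 and 85.5 CPM against at most 0.201 CPM (-8.44, SE 0.77, adjusted p = 2.38e-05). H803A 1 was the lowest of its group for both, and still far above each TMP195 library. For 3 others TMP195 gave only 1 or 2 counts in all, so the ratio of counts is given with its 95% exact interval, which covers counting error only. MPV17L, a homologue of a mitochondrial inner membrane protein, was 551 times lower (98.3 to 21800). KLRD1, the CD94 receptor of natural killer cells, was 265 times lower (46.9 to 10500) and FAM129C, a B cell gene, 134 times lower (36.7 to 1120). These 7 genes were called in all 3 fits.

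**Figure D3:**
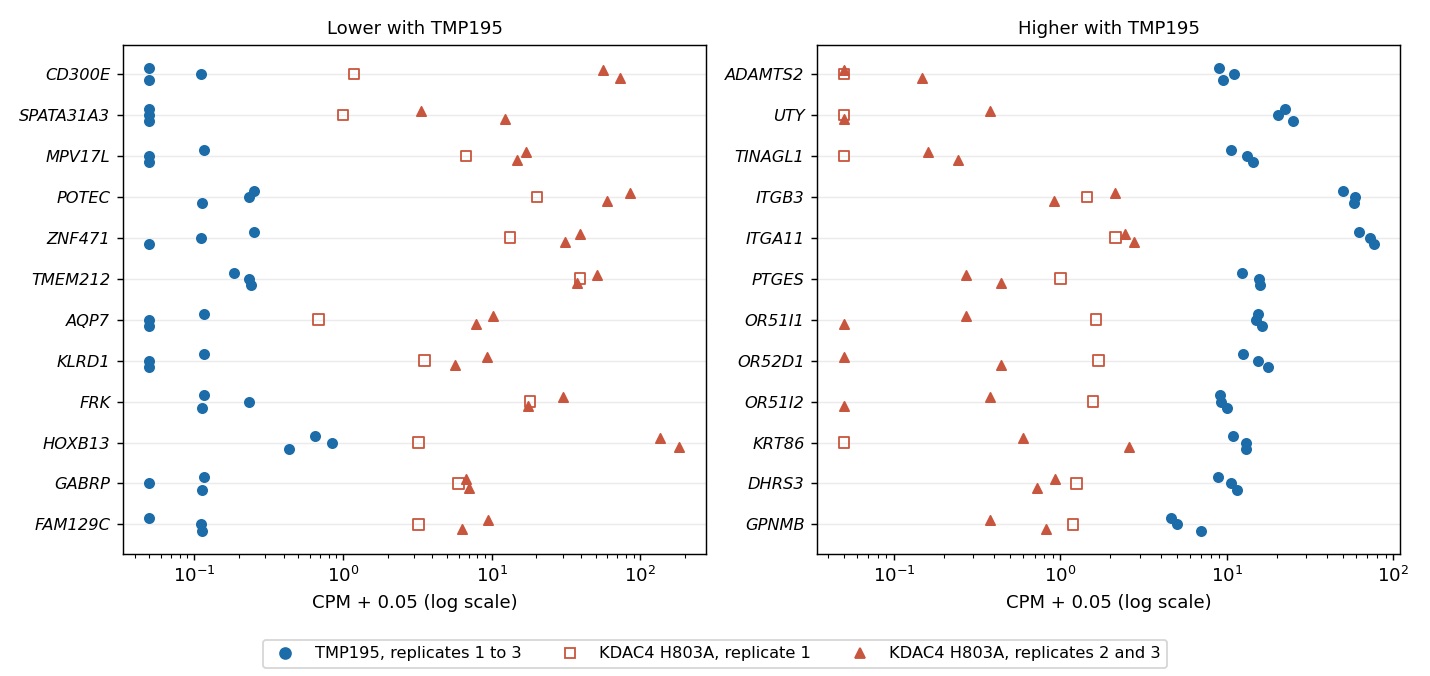
CPM plus 0.05 on a log axis in each library for the 12 protein-coding genes with the largest fold change in each direction. Circles are TMP195, the open square is H803A 1 and triangles are H803A 2 and 3; in CD300E and HOXB13 the square lies far from the triangles, and in TMEM212, FRK and GABRP it lies beside them.

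Of the other 5 of the 12, HOXB13, CD300E and AQP7 were far lower in H803A 1 than in H803A 2 and 3. HOXB13, a posterior homeobox gene, stood at 3.17 CPM in H803A 1 but at 183 and 135 CPM in H803A 2 and 3, against 0.381, 0.794 and 0.602 with TMP195 (-7.47, SE 1.75, adjusted p = 0.0243). With H803A 1 alone its call was lost (-2.49, adjusted p = 0.356). CD300E, a myeloid activating receptor, stood at 1.14, 73 and 55.8 CPM, against 1 count in all with TMP195, and lost its call in the same way (adjusted p = 0.271). AQP7, a glycerol channel, was at 0.633, 7.85 and 10.1 CPM and also lost its call with H803A 1 alone (adjusted p = 0.0781).

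SPATA31A3, of a family of near-identical testis genes, had no count with TMP195 and was at least 76.6-fold lower, with 3 counts over the group as the floor. GABRP, a GABA-A receptor subunit, was even across the KDAC4 H803A libraries at 5.95, 6.98 and 6.69 CPM and 152 times lower with TMP195 (41.5 to 1260). Both were called in all 3 fits.

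Among the genes higher with TMP195, a pair of integrin subunits were called under every alternative. ITGB3, the integrin subunit that pairs with alpha V to bind vitronectin and fibronectin, stood at 57.8, 59.2 and 50 CPM with TMP195 and at 1.39, 0.872 and 2.08 CPM in H803A 1, 2 and 3. Its log2 fold change was 5.26 (SE 0.52, adjusted p = 4.02e-05). ITGA11, the subunit of a collagen receptor of fibroblasts, stood at 76.3, 72.2 and 62.3 CPM against 2.09, 2.71 and 2.41 CPM (4.87, SE 0.54, adjusted p = 0.000107). For both, every KDAC4 H803A library was low to a similar degree, and both were called in all 3 fits.

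PTGES, the inducible prostaglandin E synthase, stood at 15.8, 15.6 and 12.3 CPM with TMP195 and at 0.95, 0.388 and 0.219 CPM in the KDAC4 H803A libraries (4.69, SE 0.44, adjusted p = 2.75e-05). ADAMTS2, which trims the ends of procollagen, stood at 9.46, 10.9 and 8.96 CPM against a single count in all, a ratio of counts of 346 (61.7 to 13700). DHRS3, which reduces retinal to retinol, stood at 11.5, 10.6 and 8.83 CPM against 1.2, 0.678 and 0.877 CPM (3.46, SE 0.35, adjusted p = 5.72e-05). The 3 genes were low in H803A 1 as in H803A 2 and 3, without overlap with TMP195, and all were called in the 3 fits.

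KRT86, a hair keratin with close paralogs, stood at 12.9, 13 and 10.9 CPM with TMP195 and at 0, 2.52 and 0.548 CPM, and was called in all 3 fits (3.61, SE 0.96, adjusted p = 0.0461). GPNMB, a glycoprotein of lysosomes and melanosomes, gave 2.82 (SE 0.60, adjusted p = 0.0147) and lost its call with H803A 1 alone (adjusted p = 0.13). TINAGL1, a basement membrane protein, stood at 14.3, 13.2 and 10.6 CPM against 3 counts in all, a ratio of 150 (51 to 729), and UTY, a Y-linked histone demethylase, at 25, 20.2 and 22.2 CPM, also against 3 counts, a ratio of 264 (90 to 1280). The olfactory receptor genes OR51I1, OR52D1 and OR51I2, neighbours on chromosome 11, gave 4.52, 4.32 and 3.79 (adjusted p = 0.0381, 0.0326 and 0.0452). With H803A 1 alone none of the 5 was called, and UTY also missed the threshold without H803A 1 (adjusted p = 0.0502).

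The side-by-side values place these genes among the other edited cells. The KDAC4 H976Y libraries differed in make-up: mitochondrial rRNA took 16.1% to 31.5% of their counts and small nucleolar RNA 0.742% to 0.937%. Every other library held at most 0.345% and 0.14%. The part of this difference in the values compared was not tested. ITGA11 stood at 93.9 ± 3.55 CPM in KDAC4 H976Y (SD, n = 4) and 7.9 ± 6.06 CPM in KDAC7 H709A (SD, n = 4), ITGB3 at 21.6 ± 4.08 and 3.56 ± 2.14 CPM and PTGES at 40.7 ± 8.89 and 1.01 ± 0.369 CPM. ITGA11, ITGB3 and PTGES were thus high with TMP195 and in KDAC4 H976Y and low in the libraries labelled with either alanine substitution. The KDAC7 H709A mean, SD and tests pool libraries that were not alike. KDAC7 H709A 1 correlated at 0.931 and 0.938 with H803A 2 and 3, and at 0.734 to 0.808 with KDAC7 H709A 2, 3 and 4. ITGB3 stood at 1.54, 5.55, 5.26 and 1.89 CPM in KDAC7 H709A 1 to 4. The direct test of KDAC4 H976Y against KDAC4 H803A gave 5.29, 3.90 and 6.17 for ITGA11, ITGB3 and PTGES (edgeR, adjusted p = 7.53e-05, 0.000385 and 1.16e-05), and that of KDAC7 H709A against KDAC4 H803A gave 1.71 and 0.84 for ITGA11 and PTGES (adjusted p = 0.574 and 0.634) and did not pass for ITGB3 (adjusted p = 0.634). ADAMTS2 had no count in either of those groups.

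The genes that were off with TMP195 showed another arrangement. TMEM212 stood at 57.3 ± 34.1 CPM in KDAC4 H976Y and 50.3 ± 4.62 CPM in KDAC7 H709A (SD, n = 4 each) and FRK at 20.8 ± 12.6 and 23.2 ± 5.13 CPM, so both genes were read in each of the 11 edited libraries and only barely in the 3 TMP195 libraries. Against KDAC7 H709A and KDAC4 H976Y, TMP195 gave -8.13 and -8.31 for TMEM212 (edgeR, adjusted p = 2.51e-06 and 2.34e-06) and -7.64 and -7.48 for FRK (adjusted p = 8.4e-06 and 6.52e-06). These comparisons share the TMP195 libraries and so are not independent of one another. HOXB13 and CD300E, in contrast, were at 0.142 ± 0.133 and 0 CPM in KDAC4 H976Y, as low as with TMP195, and at 115 ± 185 and 37.8 ± 57.8 CPM in KDAC7 H709A, where 1 library of 4 was far above the rest. UTY was at most 0.618 CPM in KDAC4 H976Y, and at 0.29, 34.4, 32.5 and 0.168 CPM in KDAC7 H709A 1 to 4. OR51I1 divided the same libraries, at 1.06, 21.9, 23 and 2.47 CPM, and stood at 6.05 to 13.6 CPM in KDAC4 H976Y.

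Integrins join the cell to its matrix. Of 15 integrin genes tested, 5 were called higher and 1 lower, beside 1.56% and 3.78% of all genes. Besides ITGB3 and ITGA11, ITGA5, the fibronectin receptor subunit, stood at 514, 555 and 451 CPM with TMP195 and at 233, 205 and 169 CPM in H803A 1, 2 and 3 (1.32, SE 0.27, adjusted p = 0.0104). ITGA3 and ITGB5 gave 0.78 and 1.16 (adjusted p = 0.0494 and 0.0369). ITGA3 was lost without H803A 1 (adjusted p = 0.0588) and ITGB5 with it alone (adjusted p = 0.215). ITGB8, whose product frees latent TGF-beta, ran the other way, at 1.14, 0.916 and 0.802 CPM against 23, 6.39 and 6.47 CPM (-3.64, SE 0.52, adjusted p = 0.000849). The groups did not overlap for ITGA5 or ITGB8, and ITGB8 was called in all 3 fits while ITGA5 lost its call with H803A 1 alone (adjusted p = 0.128). The integrin median shifted from -0.06 to 0.96 without H803A 1 and to -0.90 with it alone, with 6 and 3 called higher and 1 lower in each.

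Among 17 collagen chains, 2 were called higher and 1 lower, all 3 in each of the 3 fits, beside 0.309% and 2.14% of all genes. COL6A3, a chain of the beaded filament collagen VI, stood at 5865, 5929 and 5488 CPM with TMP195 and at 1104, 1729 and 1411 CPM in H803A 1, 2 and 3. Its log2 fold change was 2.03 (SE 0.30, adjusted p = 0.00104). COL1A2, the second chain of collagen I, was read at 1.91, 1.28 and 1.74 CPM against 1 count in all, a ratio of 57.6 (10 to 2300). COL8A1, of a short-chain collagen, stood at 3.75, 2.69 and 4.55 CPM against 16.6, 9.98 and 11.7 CPM (-1.80, SE 0.31, adjusted p = 0.00359). The median of the 17 chains was -0.22, or -0.49 without H803A 1 and 0.60 with it alone, so its sign turned with the library.

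The enzymes that crosslink and hydroxylate collagen were called in 3 of 12 cases, all higher. LOXL2, a lysyl oxidase, stood at 808, 837 and 668 CPM with TMP195 against 177, 279 and 215 CPM (1.78, SE 0.23, adjusted p = 0.00038). LOXL1, needed for elastic fibres, gave 1.05 (SE 0.23, adjusted p = 0.017), and P4HA2, a prolyl hydroxylase subunit, 1.23 (SE 0.25, adjusted p = 0.0113). No library of either group overlapped the other for these enzymes. LOXL2 and LOXL1 were called in all 3 fits, P4HA2 was lost with H803A 1 alone (adjusted p = 0.07), and the median of the 12 was 0.55, or 0.96 and 0.51 without H803A 1 and with it alone.

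Of 10 laminin chains, LAMA3, of the laminin that anchors epithelia, was called higher at 13.6, 12.7 and 12.6 CPM against 5.07, 3.88 and 5.04 CPM (1.47, SE 0.21, adjusted p = 0.000873), also in all 3 fits. Of 16 glycoproteins and proteoglycans, NID2, a linker of basement membranes, was called higher (1.61, SE 0.36, adjusted p = 0.0196), though not with H803A 1 alone (adjusted p = 0.166). Their median was 0.69 and differed by library: it was 1.11 without H803A 1, with 6 called higher, and -0.12 with it alone. FN1, fibronectin, shows this, at 919 CPM in H803A 1 and 338 and 189.7 CPM in H803A 2 and 3 against 1158, 1067 and 783 CPM with TMP195 (1.06, adjusted p = 0.268). Of 8 cadherins, PCDH1 was called higher (1.07, adjusted p = 0.0391), with a loss with H803A 1 alone (adjusted p = 0.15).

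The urokinase system cuts matrix around the cell and is held by its inhibitors. PLAUR, the urokinase receptor, gave 0.76 (SE 0.20, adjusted p = 0.0411). Of 9 genes of the urokinase system and its inhibitors, 2 were called, both higher. Without H803A 1, 5 were higher, with a median of 0.84 beside 0.76 with all libraries, and with it alone 1 was higher and 1 lower, with a median of -0.12. Of 16 metalloproteases, MMP14, the membrane-bound collagenase, was called higher at 1236, 1295 and 1118 CPM against 651, 766 and 633 CPM (0.83, SE 0.20, adjusted p = 0.0276). MMP9, the gelatinase of activated cells, was called lower, but at 0.443, 23.2 and 14.2 CPM in the KDAC4 H803A libraries its call rested on H803A 2 and 3 (-5.69, adjusted p = 0.0208, and 0.651 with H803A 1 alone). MMP14 and PLAUR were lost with H803A 1 alone (adjusted p = 0.12 and 0.288). Without H803A 1, 3 metalloproteases were called higher and 3 lower, and with it alone none.

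**Figure D4:**
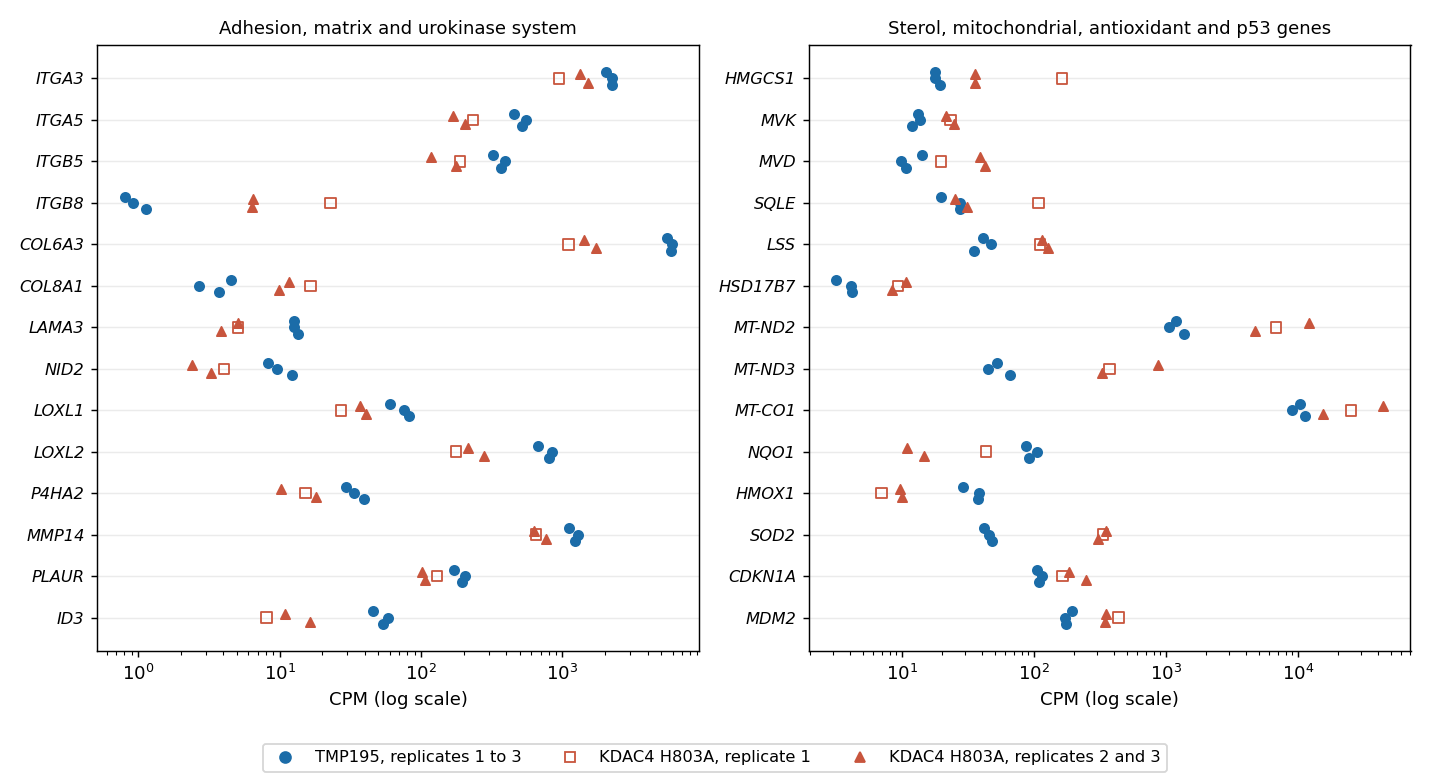
CPM on a log axis in each library for members of the matrix and adhesion lists (left) and of the sterol, mitochondrial, antioxidant and p53 lists (right). Circles are TMP195, the open square is H803A 1 and triangles are H803A 2 and 3; HMGCS1 and SQLE show the square far to the right of the triangles, and LOXL2, COL6A3 and SOD2 show the groups apart in every library.

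Among 12 SMAD target genes, 2 were called, both higher. ID3, an inhibitor of basic helix-loop-helix factors that BMP signals induce, stood at 53.9, 58.5 and 45.5 CPM against 8.04, 16.5 and 10.9 CPM (2.16, SE 0.36, adjusted p = 0.00285) and was called in all 3 fits. NOG, the secreted BMP antagonist noggin, was lower at 9.46, 12.1 and 9.76 CPM against 19.9, 27.3 and 18.3 CPM (-1.07, SE 0.26, adjusted p = 0.0312). It was the single gene called of 17 ligands, receptors and antagonists of the TGF-beta family, and lost its call with H803A 1 alone (adjusted p = 0.087). None of 11 YAP targets was called, with a median of 0.02, and 1 was higher without H803A 1. Of 20 smooth muscle and actin-binding genes, TAGLN2 was called higher (1.01, adjusted p = 0.0238), though not with H803A 1 alone (adjusted p = 0.173).

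Inflammatory genes moved in both directions. IL1B, the cytokine interleukin-1 beta, stood at 169.5, 168 and 144 CPM with TMP195 and at 71.6, 40.9 and 37.2 CPM in H803A 1, 2 and 3 (1.68, SE 0.35, adjusted p = 0.0124). CSF1, a macrophage growth factor, gave 1.17 (SE 0.24, adjusted p = 0.0104), and CCL5, a chemokine, -4.68 (SE 1.22, adjusted p = 0.0407). These were the 3 called of 8 cytokines and chemokines, and with H803A 1 alone none of IL1B, CSF1 and CCL5 was called (adjusted p = 0.166, 0.149 and 0.381). Without H803A 1, 5 of the 8 were higher and 1 lower. CXCL8 gave no call at 12.3, 11.7 and 14.5 CPM, since H803A 1 at 45.4 CPM and H803A 2 and 3 at 0.484 and 0.658 CPM lay on either side of it.

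SOD2, the mitochondrial superoxide dismutase that NF-kB induces, was the clearest of the 12 NF-kB genes. It stood at 47.7, 45.7 and 41.9 CPM with TMP195 and at 330.2, 302 and 352 CPM in H803A 1, 2 and 3. The SOD2 log2 fold change was -2.86 (SE 0.28, adjusted p = 3.41e-05), with -2.85 without H803A 1 and -2.96 with it alone. SOD2 lies on chromosome 6 beyond 62 Mb, where the median gene of H803A 2 and 3 was lower than with TMP195 (-1.09 and -1.05), while SOD2 was higher in both. It stood at 389 ± 42 CPM in KDAC7 H709A and 273 ± 109 CPM in KDAC4 H976Y (SD, n = 4 each), so TMP195 was the low group. NFKBIA, the NF-kB inhibitor, was also lower (-0.76, SE 0.20, adjusted p = 0.0398), and lost its call with H803A 1 alone (adjusted p = 0.118).

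Class I molecules show peptides to T cells. HLA-C, a class I heavy chain, stood at 0.191, 0.183 and 0.201 CPM with TMP195 and at 16.1, 15 and 8.99 CPM in H803A 1, 2 and 3 (-6.06, SE 0.45, adjusted p = 6.24e-06). HLA-B, at 8.64, 9.28 and 8.09 CPM against 7.47, 12.9 and 8.66 CPM, overlapped and was not called (-0.16, adjusted p = 0.813). Reads of these near-identical and highly variable genes may be shared between them by the counting. HLA-C was called in all 3 fits. Of 14 class I genes, 2 were called, both lower.

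Of 26 interferon-stimulated genes, 3 were called, all lower. ISG20, an antiviral exonuclease, stood at 14.4, 16 and 14.4 CPM against 30.3, 42.1 and 29.1 CPM (-1.18, SE 0.20, adjusted p = 0.00314), and DDX58, the RNA sensor RIG-I, at 8.51, 9.1 and 8.83 CPM against 34.6, 17.1 and 17.5 CPM (-1.39, SE 0.30, adjusted p = 0.0136). Neither overlapped and both were called in all 3 fits. IFI6 was the other (-1.82, adjusted p = 0.0294), lost with H803A 1 alone (adjusted p = 0.162). ISG15 gave -1.05 and did not pass (adjusted p = 0.0703). The median of the 26 was -0.30, or -0.13 without H803A 1 and -0.68 with it alone, where 4 of 27 were lower in each fit. Of all genes 3.78% were called lower with all libraries.

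Mitochondrially encoded mRNAs, which carry the subunits of the respiratory chain made inside the organelle, gave the lowest median of any list. Of 13 tested, 10 were called, all lower with TMP195, beside 3.78% of all genes, and the median log2 fold change was -2.34. MT-ND3, a complex I subunit, stood at 65.2, 44.8 and 52.5 CPM with TMP195 and at 370.4, 325 and 862 CPM in H803A 1, 2 and 3 (-3.26, SE 0.51, adjusted p = 0.00189). MT-ND2, another, stood at 1364, 1046 and 1188 CPM against 6776, 4690 and 11940 CPM (-2.70, SE 0.48, adjusted p = 0.00486). The groups did not overlap for any of the 13, beside 24.3% of all genes without overlap. The median was -2.36 with 12 called without H803A 1, and -2.22 with 6 called with it alone.

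MT-CO1, MT-CO3 and MT-CYB were the mitochondrial mRNAs that did not pass (-1.47, -1.83 and -1.72, adjusted p = 0.129, 0.0556 and 0.122). MT-ND2 stood at 280.4 ± 146 CPM in KDAC4 H976Y and 6097 ± 2575 CPM in KDAC7 H709A (SD, n = 4 each), so TMP195 lay between them for this gene. MT-ND3 was at 67.9 ± 23.4 CPM in KDAC4 H976Y and 290.1 ± 157 CPM in KDAC7 H709A (SD, n = 4 each), and TMP195 was the lowest at 54.1 ± 10.3 CPM (SD, n = 3). Of 26 nuclear-encoded respiratory chain genes, none was called and their median was 0.34, or 0.61 with 4 called higher without H803A 1 and -0.14 with it alone. The share of all counts from these mRNAs is a library measure given above, and its part in the single genes was not tested. Nor was that of the higher mitochondrial rRNA in the KDAC4 H976Y libraries.

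Cholesterol is made from acetyl-CoA by way of mevalonate and squalene. Of 22 genes of sterol synthesis and uptake, 5 were called, all lower, beside 3.78% of all genes. Their median was -0.91 beside -0.11 for all genes. LSS, which closes the sterol ring, stood at 34.7, 46.7 and 40.7 CPM with TMP195 and at 110.5, 127 and 115 CPM in H803A 1, 2 and 3 (-1.53, SE 0.21, adjusted p = 0.000648). HSD17B7, a later step, stood at 4.13, 4.09 and 3.14 CPM against 9.25, 8.33 and 10.6 CPM (-1.31, SE 0.27, adjusted p = 0.0118). Both genes were tight within each group and called in all 3 fits.

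MVK, mevalonate kinase, and MVD, the decarboxylase that follows, gave -0.85 and -1.54 (adjusted p = 0.0308 and 0.0298), and neither was called with H803A 1 alone (adjusted p = 0.0649 and 0.227). HMGCS1, HMG-CoA synthase, stood at 19.2, 17.7 and 17.6 CPM against 162, 35.3 and 35.6 CPM (-2.09, SE 0.56, adjusted p = 0.0453). Its call rested on H803A 1 and was lost without it (-0.95, adjusted p = 0.104). SQLE, squalene epoxidase, had the same shape, at 108 CPM in H803A 1 and 30.8 and 25 CPM in H803A 2 and 3, against 27.4, 27.5 and 19.5 CPM with TMP195, and was not called (-1.14, adjusted p = 0.269).

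The list therefore divides between libraries. Without H803A 1 the sterol median was -0.42 with 5 of 23 called lower, beside 7.86% of all genes. With H803A 1 alone the sterol median was -1.47, beside 0.05 for all genes. Of 8 fatty acid synthesis genes, ACSS2, which makes acetyl-CoA from acetate, was called higher, at 52.7, 46.3 and 50.5 CPM against 31.7, 25.7 and 25.1 CPM (0.86, SE 0.20, adjusted p = 0.0238), though not with H803A 1 alone (adjusted p = 0.214). FASN and SCD gave -0.97 and -1.64 (adjusted p = 0.0537 and 0.157).

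Since the 5 called sterol genes share a pathway, their promoters were read from RefSeq (GRCh38.p14), in the 250 bases before the gene start, for a CCAAT box (CCAAT, either strand), which binds NF-Y, a partner of the sterol factor SREBP. Each of the 5 held at least 1, as did 9 of the 12 promoters of uncalled members with an entry, beside 32.0% of all 35116 promoters. The box nearest the start is shown in capitals with 15 bases on each side, on the gene's own strand, where ATTGG is the box read on the other strand. The windows are chr5:43313493-43313527 for HMGCS1, chr12:109573733-109573767 for MVK, chr16:88663157-88663191 for MVD, chr21:46228905-46228939 for LSS and chr1:162790635-162790669 for HSD17B7.

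HMGCS1 (minus strand): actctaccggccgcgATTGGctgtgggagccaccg

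MVK (plus strand): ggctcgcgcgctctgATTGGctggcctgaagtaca

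MVD (minus strand): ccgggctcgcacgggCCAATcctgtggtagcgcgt

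LSS (minus strand): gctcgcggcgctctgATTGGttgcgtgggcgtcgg

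HSD17B7 (plus strand): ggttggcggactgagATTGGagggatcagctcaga

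A sterol regulatory element written as TCACNCCAC, either strand, was in 0 of the 5 and 1 of the 12, beside 0.883% of all promoters. These are matches of letters in a window.

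NRF2 drives genes of the response to oxidants. Of 22 targets tested, 4 were called, all higher, 20 lay above 0, and the median was 0.69. Of all genes 1.56% were called higher and 7578 of 17780 lay above 0. HMOX1, haem oxygenase 1, stood at 37.6, 38.2 and 28.8 CPM with TMP195 and at 6.97, 9.88 and 9.54 CPM in H803A 1, 2 and 3 (1.99, SE 0.29, adjusted p = 0.00105). AKR1C1, an aldo-keto reductase, gave 2.46 (SE 0.55, adjusted p = 0.0196). HMOX1 and AKR1C1 were called in all 3 fits.

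NQO1, a quinone reductase, stood at 91.8, 105 and 86.2 CPM against 43, 14.5 and 10.9 CPM (2.04, SE 0.50, adjusted p = 0.0303), with H803A 1 nearer to TMP195, and lost its call with H803A 1 alone (adjusted p = 0.223). TXNRD1, thioredoxin reductase, had the same order at 549, 261 and 245 CPM against 777 to 806 CPM and did not pass (1.16, adjusted p = 0.0836). The NRF2 median was 1.15 with 9 of 23 called without H803A 1, beside 6.62% of all genes, and 0.39 with 3 called with it alone. An antioxidant response element written as TGACNNNGC, either strand, was in 0 of the 2 called and 4 of the 14 uncalled NRF2 targets with a promoter entry, beside 10.9% of all promoters, and an AP-1 site written as TGANTCA in 0 and 2, beside 6.57%.

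Hypoxia and glycolysis genes lay on the higher side with few calls. Of 15 hypoxia response genes, EPAS1, which encodes the factor HIF-2 alpha, and CA12, a carbonic anhydrase, were called, both higher, beside 1.56% of all genes. EPAS1 stood at 178, 180.5 and 152 CPM against 93.6, 48.6 and 35.3 CPM (1.52, SE 0.32, adjusted p = 0.0136), and CA12 gave 1.68 (SE 0.39, adjusted p = 0.0233). The libraries did not overlap, and with H803A 1 alone neither was called (adjusted p = 0.164 and 0.19). VEGFA gave 0.96 (adjusted p = 0.13). All 21 glycolysis genes lay above 0, beside 7578 of 17780 genes tested, with a median of 0.37 beside -0.11. Only ALDOC, an aldolase, was called (2.30, SE 0.50, adjusted p = 0.0158). It gave 2.85 with H803A 1 alone, where its call was lost. Without H803A 1, 7 of 15 hypoxia response genes and 6 of 21 glycolysis genes were called higher, beside 6.62% of all genes.

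**Figure D5:**
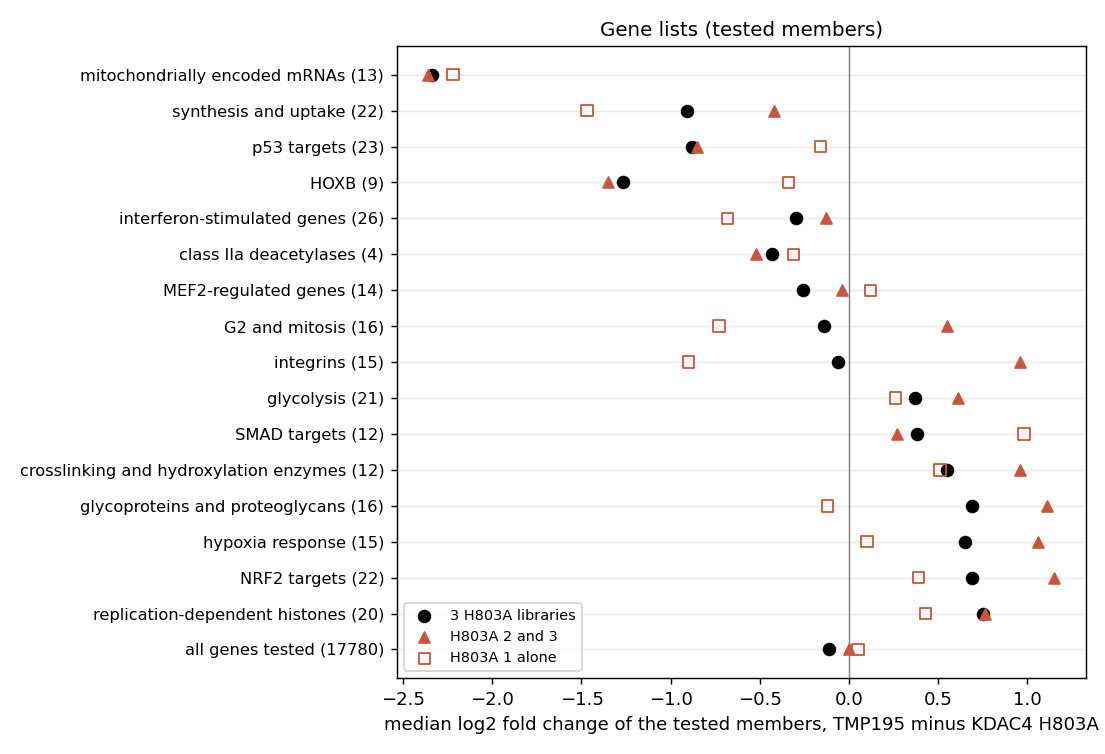
Median log2 fold change (TMP195 minus KDAC4 H803A) of the tested members of each gene list, with the number tested in brackets (synthesis and uptake are the sterol genes). Black circles use all 3 KDAC4 H803A libraries, triangles H803A 2 and 3, and open squares H803A 1 alone; mitochondrially encoded mRNAs stay near -2.3 in each, while integrins and the genes of G2 and mitosis have the triangle and the square on opposite sides of 0.

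p53 turns on genes that halt the cell cycle and genes that restrain p53 itself. Of 23 targets tested, 6 were called, all lower, beside 3.78% of all genes, with a median of -0.88. CDKN1A, the p21 inhibitor of cyclin-dependent kinases, stood at 108, 115 and 104 CPM with TMP195 and at 163, 247 and 184 CPM in H803A 1, 2 and 3 (-0.86, SE 0.21, adjusted p = 0.0273). MDM2, the ligase that degrades p53, stood at 175, 170.2 and 191 CPM against 433, 345 and 349 CPM (-1.07, SE 0.28, adjusted p = 0.0389). BTG2, an antiproliferative gene, gave -1.38 (SE 0.30, adjusted p = 0.0144). The libraries of these genes did not overlap, CDKN1A was lost with H803A 1 alone (adjusted p = 0.118), and MDM2 and BTG2 were called in all 3 fits.

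TP53I3, DDB2 and FDXR were the other calls (-1.25, -1.02 and -2.27, adjusted p = 0.0257, 0.0337 and 0.031), none of them with H803A 1 alone (adjusted p = 0.215, 0.324 and 0.836). FDXR, ferredoxin reductase, stood at 19 CPM in H803A 1 and 124 and 119 CPM in H803A 2 and 3, against 17.3, 18.1 and 18.9 CPM with TMP195. Without H803A 1, 12 of the 23 were called lower, beside 7.86% of all genes, and 1 higher with a median of -0.85, and with it alone 7 lower and 1 higher with a median of -0.16.

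No gene of the cell cycle lists was called with all libraries: 0 of 16 of the start of S phase and 0 of 16 of mitosis, with medians of 0.22 and -0.14. MKI67, the proliferation antigen, stood at 561, 526 and 491 CPM against 872, 571 and 672 CPM (-0.42, adjusted p = 0.361), and CCND1, cyclin D1, at 858, 936 and 859.8 CPM against 705, 788 and 710.3 CPM (0.27, adjusted p = 0.627). The mitotic median was 0.55 with 4 called higher without H803A 1, and -0.73 with 2 called lower with it alone.

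HOX genes set position along the body axis. Of 9 HOXB genes, HOXB13 and HOXB2 were called lower, beside 3.78% of all genes, and the median was -1.27 beside -0.11. HOXB2 stood at 19.3, 20.6 and 18.2 CPM with TMP195 and at 42.2, 43.8 and 55.7 CPM in H803A 1, 2 and 3 (-1.28, SE 0.33, adjusted p = 0.0358), without overlap, though not called with H803A 1 alone (adjusted p = 0.102). None of the 9 HOXA, 7 HOXC and 5 HOXD genes tested was called with all libraries. Without H803A 1, 6 of 9 HOXB and 3 of 5 HOXD genes were called lower, beside 7.86% of all genes. With H803A 1 alone the medians of HOXB, HOXC and HOXD were -0.34, -0.77 and -0.50, beside 0.05 for all genes. Of 21 regulators of mesenchyme and skeleton, SOX9, a chondrocyte factor, stood at 109, 111 and 102 CPM against 341, 216 and 183 CPM (-1.21, SE 0.23, adjusted p = 0.00809), in all 3 fits, and RUNX1 gave -0.84 (SE 0.21, adjusted p = 0.034), lost with H803A 1 alone (adjusted p = 0.317).

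The remaining lists held few calls with all libraries. Of 20 replication-dependent histone genes, whose transcripts are near copies of one another and so uncertain, 3 were called higher: HIST1H2BK, HIST1H3H and HIST1H3A (1.51, 1.48 and 1.37, adjusted p = 0.00545, 0.0034 and 0.0466), none of them with H803A 1 alone (adjusted p = 0.0824, 0.0696 and 0.3). Without H803A 1, 8 histone genes were higher and 1 lower. Of 17 amino acid response genes, SLC7A5, the large neutral amino acid transporter, and VLDLR, a lipoprotein receptor, were called higher (0.90 and 1.12, adjusted p = 0.046 and 0.0389). VLDLR was lost with H803A 1 alone and SLC7A5 in either of the other fits. The list as a whole did not weaken with H803A 1 alone. Its median was 0.53 there, beside 0.43 with all libraries and 0.39 without H803A 1, and those of all genes were 0.05, -0.11 and 0.00. None of 49 cytosolic ribosomal protein genes, 13 unfolded protein response genes, 9 heat shock genes, 25 growth factor receptors and ligands, or 22 acetyltransferases, sirtuins and acetyl readers was called with all libraries. Without H803A 1, 6 of the ribosomal protein genes and 5 of the unfolded protein response genes were higher. In that fit 4 of 27 growth factor receptors and ligands were higher and 2 lower, and 2 acetyl readers were lower. With H803A 1 alone, 2 heat shock genes, 1 ribosomal protein gene, 1 growth factor ligand, 2 acetyltransferases and 1 sirtuin were lower.

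The markers of the line and of other cell types were read as a check. VIM, vimentin, stood at 2808 to 5636 CPM in the 6 libraries. The summed level of 10 mesenchymal markers was 8263, 4682 and 3564 CPM in H803A 1, 2 and 3 and 5377 to 6724 CPM with TMP195, and LGALS1, a galectin among them, was called higher with TMP195 (1.23, SE 0.28, adjusted p = 0.0226), although not with H803A 1 alone (adjusted p = 0.22). Of 11 epithelial markers CDH1 and KRT14 had no count in the 6 libraries, of 8 blood markers PTPRC, CD3E and HBB had none, and of 11 skeletal muscle markers MYOD1, MYF5 and MYOG had none. The keratins KRT8 and KRT18 were read in every library, at 144.9 to 269.9 and 137.2 to 216.1 CPM, as was LCP1, an actin bundler of blood cells, at 111.7 to 164.2 CPM. The summed level of the epithelial markers was 357.7, 494.6 and 401.3 CPM in H803A 1, 2 and 3 and 302.4 to 376.9 CPM with TMP195, and that of the blood markers 164.3, 158.9 and 142.1 CPM against 111.8 to 142.9 CPM. The skeletal muscle markers summed to 16.02, 49.42 and 51.75 CPM against 18.6 to 21.73 CPM, of which MYH3, an embryonic myosin, made up 3.42, 29.17 and 34.76 CPM in H803A 1, 2 and 3. The 8 endothelial markers summed to 121.1, 134.1 and 112.2 CPM against 94.95 to 105.1 CPM. NEFL, the neurofilament light chain, was the single gene called of the other types' markers, lower at 2.6, 2.99 and 1.6 CPM against 39.3, 28.2 and 21.4 CPM (-3.62, SE 0.48, adjusted p = 0.000524), in all 3 fits. The 10 neural markers, NEFL among them, summed to 162, 91.95 and 72.59 CPM in H803A 1, 2 and 3 and 95.22 to 122.8 CPM with TMP195, so NEFL did not stand for its list. TUBB3, a neural tubulin, stood at 103.8, 53.1 and 40.13 CPM against 81.98 to 109.5 CPM. The part of these marker levels in the results was not tested.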

How the data were processed

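RNA of 6 libraries (3 TMP195, 3 KDAC4 H803A) was compared in a model of all 14 count libraries. The authors deposited expected counts per gene for 60675 genes. Per the submitters' processing notes, the tools include RSEM 1.3.3, Bowtie2 2.4.5, DESeq2 1.38.2 and Trimmomatic 0.39, and the build is GRCh38. RSEM divides reads among matching transcripts, so counts of near-identical genes are uncertain. The strand setting is not given in the sources used here, so overlapping antisense genes cannot be told apart. The column of KDAC4 H803A replicate 4 equalled transcript length minus 248.86 bases, within 0.02 bases, for 96.8% of 7608 single-transcript genes longer than 1000 bases, and was left out.

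Counts were rounded, filtered with filterByExpr (minimum count 10, total 15), scaled by TMM and tested with edgeR 4.0.16 (quasi-likelihood; limma 3.58.1, R 4.3.3) with Benjamini-Hochberg adjustment. The 28 alternatives included DESeq2 1.42.0, limma-voom, other scalings and filters, GC and length offsets, a replicate block and each library left out. All 847 listed symbols matched. GC-rich and GC-poor genes are the top and bottom quartiles by GC content among genes above 5 CPM. On simulated counts for this comparison the test recovered 5 of 67 genes changed 2-fold, 40 of 67 changed 4-fold and 52 of 66 changed 8-fold, with 4 false calls among 17780 genes. Named genes were the 12 with the largest change in each direction (as defined in the text), the class IIa and MEF2 genes, and up to 3 called members of each list role in each direction, with the best known others. Genes and lists were chosen with earlier results of these data known. Some genes are not reported here.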

Additional observations from a re-analysis of the deposited data

Results flagged for a closer look

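Among the values given for the other edited cells, 10 of 42 groups of 4 libraries held 1 library far from the other 3. Chance flags about 1 independent group in 20. These groups are 21 genes read in the same libraries, so they are not independent and the rates cannot be compared. In KDAC4 H976Y replicate 4 was the library apart each time. It was the highest for TMEM212 at 107.9 CPM (next 45.9), FRK at 39.5 CPM (next 16.3), SOD2 at 436.9 CPM (next 228.8), MT-ND2 at 499.3 CPM (next 219.2) and HDAC4 at 21.8 CPM (next 15.9), and the lowest for PTGES at 27.4 CPM (next 44.6) and COL6A3 at 2334 CPM (next 3110). In KDAC7 H709A, replicate 1 was the highest for HOXB13 at 392 CPM (next 33.8) and CD300E at 124 CPM (next 13.2), and replicate 2 for PTGES at 1.56 CPM (next 0.876).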

How the results depend on the processing

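The count of 949 calls (277 higher, 672 lower, 811 by at least 2-fold) moved with the libraries more than with the scaling. In the same order, it was 366 (90, 276, 366) in a fit of the 6 libraries alone, 1936 (680, 1256, 1342) with DESeq2, 3531 (1931, 1600, 2640) with GC and length offsets and without H803A 1, and 8792 (4198, 4594, 4784) without H803A 1 and KDAC7 H709A replicates 1 and 4. With H803A 1 alone 1038 were lower. Genes called higher numbered 428 with upper quartile scaling and 163 without a filter on low counts. Leaving out 1 library of the 14 at a time gave 436 to 2695 calls (89 to 1232 higher, 347 to 1463 lower, 432 to 2248 by at least 2-fold). The fit without H803A 1 gave the highest of each. Calls fell to 446, 436 and 476 without TMP195 replicates 1, 2 and 3 and to 562 without H803A 3, and rose to 1438 without KDAC7 H709A replicate 1. Genes called higher also moved past 1.5 times, to 157 without H803A 2 and 173, 182 and 184 without KDAC4 H976Y replicates 1, 2 and 3. The causes were not tested. Whether replicate numbers pair the samples is not settled. Deviations of same-numbered libraries correlated at 0.43, -0.16 and 0.56 for numbers 1, 2 and 3, beside at best -0.38, 0.26 and 0.4 with another number. Same-numbered libraries were thus closer for numbers 1 and 3 but not for 2. A replicate block gave 563 calls (140 higher, 423 lower, 526 by at least 2-fold), or 165 higher with GC and length offsets as well. Of 87 named genes, 85 kept their side of the threshold without H803A 1, 46 with it alone, 44, 46 and 53 without TMP195 replicates 1, 2 and 3, 61 with the replicate block, 45 of 84 with the 6 libraries alone, 69 with GC and length offsets, 86 with DESeq2 size factors and 81 with upper quartile scaling. MEF2A alone reversed in direction into a call, at 0.72 without H803A 1 and KDAC7 H709A replicates 1 and 4. In that fit, which called 8792 of 18359 genes tested, HDAC4, HDAC5 and HDAC7 also became calls. At this depth and number of libraries, most 2-fold changes would be missed.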

Other observations

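Some genes outside the lists, named here after their values were seen, were also called with all libraries, without H803A 1 and with it alone. CPT1A, which brings fatty acids into mitochondria, stood at 35.5, 35.5 and 31.3 CPM with TMP195 and at 9.75, 8.82 and 8 CPM in H803A 1, 2 and 3 (log2 fold change 1.94, SE 0.18, edgeR adjusted p = 2.42e-05). It was at 9.73 ± 0.762 CPM in KDAC4 H976Y and 9.47 ± 0.46 CPM in KDAC7 H709A (SD, n = 4 each), so TMP195 was the high group. H6PD, the enzyme that makes NADPH inside the endoplasmic reticulum, stood at 151, 168 and 148 CPM against 55.9, 57.9 and 47.8 CPM (1.53, SE 0.19, adjusted p = 0.00035). TXNIP, the arrestin relative of ARRDC4 that restrains glucose uptake, stood at 73.8, 69.2 and 55 CPM against 24, 23.9 and 17.8 CPM (1.59, SE 0.24, adjusted p = 0.00114).

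Non-coding genes held some of the largest differences. LINC00506 on chromosome 3 stood at 1.65, 0.916 and 1.14 CPM with TMP195 and at 217, 318 and 381 CPM in H803A 1, 2 and 3 (-7.94, SE 0.53, adjusted p = 5.5e-06), and at 212 ± 124 and 286 ± 58.9 CPM in KDAC4 H976Y and KDAC7 H709A (SD, n = 4 each). The pseudogene BZW1P2 had no count in KDAC4 H803A and stood at 16.6, 17.8 and 9.43 CPM with TMP195, at least 173-fold higher, with 3 counts over the group as the floor.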
